A study of Mus musculus with 160 samples.

Results

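The fatty acid desaturases and elongases of the mouse were followed through 5 tissues, 4 inbred strains and 4 diets. The family was defined by gene name and held 10 of the 56980 genes in the deposited tables: the stearoyl-CoA desaturases Scd1, Scd2 and Scd4, the front-end desaturases Fads1 and Fads2, and the elongases Elovl1, Elovl2, Elovl3, Elovl5 and Elovl6. Each name matched one Ensembl identifier, and all 10 had counts. RNA-seq libraries came from liver, brown adipose tissue, subcutaneous adipose tissue, visceral adipose tissue and quadriceps muscle. Male SJL, DBA/2J, A/J and C57BL/6J mice were moved at 12 weeks of age from chow to an American, Mediterranean, vegetarian or vegan diet, stayed on it for 6 weeks, and were sampled at 18 weeks. The diets were matched in calories and macronutrients and differed in the sources of these, per the labels, and a group kept on chow was not analysed here. Each of the 80 combinations of tissue, strain and diet held 2 libraries, so that a tissue had 32 libraries and a strain or a diet had 8 of them per tissue. The 160 libraries came from 35 mice, of which 29 gave all 5 tissues, and within a tissue every library came from another mouse.

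Stearoyl-CoA desaturases place a double bond in the middle of saturated acyl chains and make oleate and palmitoleate, the main monounsaturated fatty acids of stored fat. Fads2 and Fads1 catalyse the first and a later desaturation step by which dietary linoleate and alpha-linolenate become arachidonate, eicosapentaenoate and docosahexaenoate, with Elovl5 and Elovl2 adding carbons between and after these steps. Elovl6 extends palmitate towards stearate, Elovl1 and Elovl3 act on saturated and monounsaturated very-long chains, and several of these genes are known targets of sterol regulatory element binding proteins and liver X receptors, with lower expression when polyunsaturated fat is eaten.

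Library totals ran from 18.0 to 54.8 M counts. Alb, made by hepatocytes, had a median of 82629 CPM (counts scaled by the library total) in liver, Ucp1 of brown adipocytes 7584 in brown fat, Adipoq of adipocytes 1454 in subcutaneous and 2076 in visceral fat, and Ckm of muscle fibres 13307 in muscle. In 27 libraries of the other 4 tissues the transcripts departed from the labelled tissue. These libraries either held Alb at over 10% of the liver mean (4 in brown fat, 8 in muscle, 4 in subcutaneous fat and 9 in visceral fat) or held less than 10% of their depot's median of Hoxc10 (subcutaneous) or Wt1 (visceral). Alb reached 21.4% of the liver mean in brown fat, 42.8% in muscle, 54.4% in subcutaneous fat and 62.2% in visceral fat. Because several members are far higher in liver than in these tissues, values are also given without these 27 libraries, called the left-out libraries below. In bulk tissue, fewer cells of a type and less RNA per cell cannot be told apart.

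The genes lie on 5 chromosomes of GRCm39 (GENCODE annotation), with 6 of them on chromosome 19. Scd2 at chr19:44281613-44295303 (plus strand), Scd4 at chr19:44321531-44336783 (plus strand) and Scd1 at chr19:44382894-44399154 (minus strand) form a cluster of related copies, and Fads2 at chr19:10038130-10079203 (minus strand) and Fads1 at chr19:10160167-10174241 (plus strand) are neighbours. Elovl3 lies at chr19:46119917-46124133 (plus strand). The others are Elovl1 at chr4:118284346-118290150 (plus strand), Elovl2 at chr13:41335857-41374112 (minus strand), Elovl5 at chr9:77818113-77891802 (plus strand) and Elovl6 at chr3:129326004-129432144 (plus strand). Reads that fit more than one gene were split into fractions by the authors, and a count that is not whole holds such a share. Scd2 had a whole count in 26 of the 160 libraries, Scd4 in 63, Elovl3 in 83, Fads1 in 92 and Scd1 in 97, against 150 for Elovl5 and 158 for Elovl2. Levels are uncertain to the extent that reads were shared with other genes, most of all for Scd2 and Scd4, which had the fewest whole counts. Which genes shared the split reads was not determined.

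By median level Scd1 was the most abundant member in all 5 tissues, and the leading elongase was Elovl3 in liver, Elovl6 in brown fat and Elovl5 in the other 3. These levels are the authors' TPM (counts divided by transcript length and scaled by library), given as lowest, median and highest of 32 libraries. Scd1 had 7472, 19221 and 47645 TPM in visceral fat and 4226, 13281 and 36986 TPM in subcutaneous fat. Brown fat had 2406, 11655 and 35384 TPM of it. Liver held 242, 1239.9 and 7437 TPM and muscle 154, 468 and 1205 TPM. Every fat library therefore lay above the liver median of Scd1, and liver itself spanned a wide range. Scd1 made up 99.7% ± 0.288 (SD, n = 32) of the summed TPM of Scd1 to Scd4 in liver and 93.2% ± 3.36 in muscle, where its share was lowest. Scd2, the copy known from brain and from early life, was a minor form with the same ranking of fat over liver: 49.3, 324 and 926 TPM in visceral fat against 1.87, 3.34 and 6.96 TPM in liver. The visceral and liver libraries of Scd2 did not overlap. Scd4, described mainly in heart, stayed at or below 12.9 TPM in every library, with medians from 0.0417 TPM in liver to 0.911 TPM at most.

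The genes that make long polyunsaturated chains were highest in liver. Fads2 had 167, 379 and 738 TPM in liver and 4.29, 7.70 and 182 TPM in brown fat. Fads1 had 113, 198 and 311 TPM in liver and 4.94, 9.73 and 76.9 TPM in brown fat. Elovl2, the elongase of the last steps towards docosahexaenoate, had 179, 291 and 735 TPM in liver, against a median of 0.264 TPM in brown fat. No brown fat library reached the lowest liver library for Fads1 or Elovl2, and for Fads2 the highest brown fat library was a left-out one, with 45.3 TPM the maximum of the rest. Outside liver, Elovl2 was spread over a wide range, with medians of 0.718 TPM in subcutaneous fat, 17.4 TPM in visceral fat and 7.32 TPM in muscle and maxima of 152, 187 and 121 TPM. Without the left-out libraries the maxima were 13.1, 38.5 and 38.9 TPM. Elovl5, which extends the products of Fads2, was also highest in liver at 111, 441 and 923 TPM, and visceral fat followed with 97.3, 125 and 288 TPM. Fads1 and Fads2 were not in one ratio: Fads1 stood at 50.3% ± 7.37 of Fads2 in liver and at 172% ± 64.0 in subcutaneous fat (means of per-library ratios of TPM, SD, n = 32), with 122% in brown fat, 98.4% in visceral fat and 86.9% in muscle. These means include the left-out libraries. Liver itself had the lowest ratio, and the part of liver transcripts in the ratios of the other tissues was not tested.

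Elovl6, the elongase of newly made palmitate, was highest in brown fat, with 161, 261 and 394 TPM there. It had 9.94, 31.4 and 127 TPM in subcutaneous fat and 9.05, 26.8 and 86.4 TPM in liver. Muscle held the least, with 0.237, 5.20 and 21.4 TPM. The brown fat libraries of Elovl6 did not overlap with those of muscle, and both white depots shared their range with liver. Elovl3, first described as a gene that cold induces in brown fat and also expressed in liver, had 161, 451 and 1275 TPM in liver and 32.3, 185 and 537 TPM in brown fat. The range of Elovl3 in subcutaneous fat, 0.108 to 296 TPM, covered almost the whole scale. Elovl1, a widely expressed elongase of saturated very-long chains, had the least varied medians, from a median of 9.91 TPM in brown fat to 61.2 TPM in visceral fat. Of the summed TPM of Elovl1 to Elovl7, Elovl6 held 45.6% and Elovl3 34.4% in brown fat, whereas Elovl5 held 43.1% in subcutaneous fat, 44.4% in visceral fat and 35.9% in muscle (means of 32 libraries). In liver the sum was divided between Elovl3 with 37.8%, Elovl5 with 32.2% and Elovl2 with 24.6%.

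**Figure D1:**
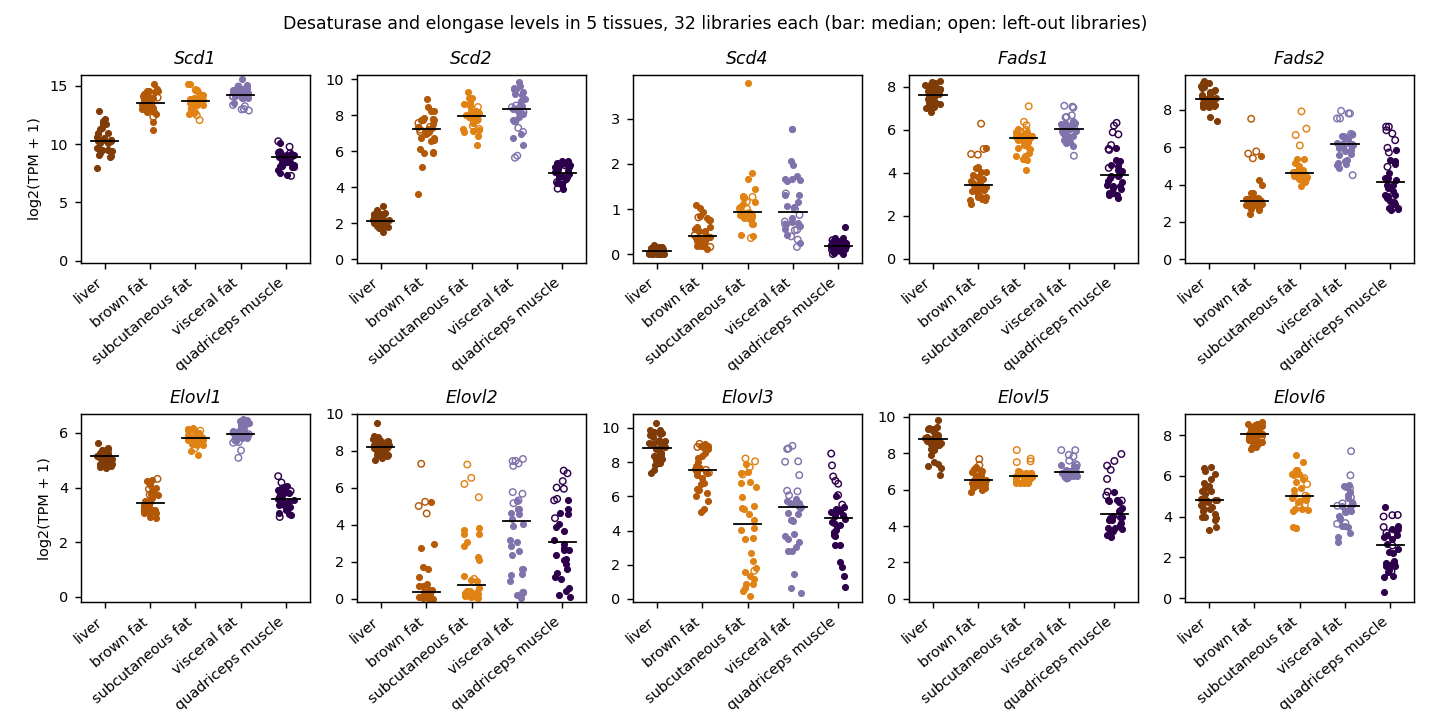
Level of each of the 10 genes in each tissue, as log2(TPM + 1) on the vertical axis, with 1 point per library (32 per tissue) and a bar at the median; open points are the left-out libraries. By medians, Scd1 lies above all other members in each tissue, Elovl6 peaks in brown fat with a median of 261 TPM, and Fads1, Fads2, Elovl2 and Elovl5 peak in liver.

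Tissues were compared in one edgeR quasi-likelihood fit of all 160 libraries with terms for tissue, strain and diet, Benjamini-Hochberg adjusted over all genes tested, and a gene was called at an adjusted p under 0.05. Differences are log2, positive where the first-named tissue was higher. Of the 100 tests (10 members in 10 pairs of tissues), 88 were called, but most genes of the genome also differed between tissues. All 10 members were called for liver against brown fat (background 81.6% of genes tested), liver against subcutaneous fat (87.7%), liver against visceral fat (85.2%), liver against muscle (82.6%) and brown fat against muscle (76.9%). Of the 10, 7 were called for brown against subcutaneous fat (76.5%), 8 for brown against visceral fat (76.6%), 8 for subcutaneous against visceral fat (60.2%), 8 for subcutaneous fat against muscle (84.2%) and 7 for visceral fat against muscle (79.9%). These shares are near the background, so the counts do not set the members apart.

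The sizes gave the order of tissues. Elovl6 was higher in brown fat than in subcutaneous fat (log2 difference 3.62, SE 0.25, edgeR adjusted p = 8.65e-30) and than in muscle (log2 difference 5.24, SE 0.27, edgeR adjusted p = 1.59e-42). Fads2 differed between liver and brown fat (log2 difference 5.0, SE 0.35, edgeR adjusted p = 2.62e-29). For Elovl2 in the same pair the difference was 5.97 (SE 0.81, edgeR adjusted p = 2.41e-11), and 8.47 without the left-out libraries. Scd1 was lower in liver than in visceral fat, with a difference of -2.37 (SE 0.19, edgeR adjusted p = 6.12e-25), and higher in liver than in muscle (log2 difference 2.09, SE 0.18, edgeR adjusted p = 1.81e-21). Neighbours in the order that were not called include Scd1 in brown against visceral fat, at 0.19 (SE 0.18, edgeR adjusted p = 0.331), Scd2 in brown against subcutaneous fat, at 0.19 (SE 0.15, edgeR adjusted p = 0.243), and Elovl2 in visceral fat against muscle, at 0.16 (SE 0.65, edgeR adjusted p = 0.834). Between subcutaneous and visceral fat, neither Elovl6, at 0.38 (SE 0.23, edgeR adjusted p = 0.14), nor Scd4, at -0.041 (SE 0.24, edgeR adjusted p = 0.891), was called. The Elovl6 value rests on the library set: it was 0.88 (edgeR adjusted p = 0.000561) without the left-out libraries and 0.70 (adjusted p = 0.0027) without mouse 24 alone.

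The scaling of libraries bears on these directions. TMM factors shifted all genes, relative to plain library totals, by 1.08 for liver against subcutaneous fat, 0.91 for liver against visceral fat, -0.96 for subcutaneous fat against muscle, -0.79 for visceral fat against muscle and 0.64 for brown against subcutaneous fat (log2). The other pairs shifted by 0.47 for brown against visceral fat, 0.44 for liver against brown fat, -0.32 for brown fat against muscle, -0.17 for subcutaneous against visceral fat and 0.12 for liver against muscle. On the authors' TPM, tested with limma on log2(TPM + 1), 6 called differences took the other sign. Elovl1 went from 0.66 to -0.68 for liver against subcutaneous fat and from 0.34 to -0.85 for liver against visceral fat. Elovl6 went from 0.95 to -0.33 for liver against subcutaneous fat, Elovl5 from 0.73 to -0.19 and Scd1 from 0.88 to -0.14 for brown against subcutaneous fat, and Fads2 from -0.99 to 0.46 for subcutaneous fat against muscle. No direction is given for these 6. Of the neighbours above, limma called Scd1 lower in brown than in visceral fat (-0.68, limma adjusted p = 0.000868), Scd2 lower in brown than in subcutaneous fat (-0.83, limma adjusted p = 1.5e-06) and Elovl6 higher in subcutaneous than in visceral fat (0.65, limma adjusted p = 0.0038). Elovl3 in subcutaneous against visceral fat went from -1.02 (edgeR adjusted p = 0.0472) to 0.36 without the left-out libraries (edgeR adjusted p = 0.485). Elovl5 in brown against visceral fat was not called (0.21, edgeR adjusted p = 0.293). It was 0.59 without the left-out libraries (edgeR adjusted p = 5.95e-06) and -0.48 by limma (limma adjusted p = 0.00645), so the order of these 2 depots is not settled.

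Within a tissue, the called differences of the members lay between strains. Within each tissue an edgeR fit of the 32 libraries with terms for strain and diet tested all strains together, and each strain was then set against the mean of the other 3 (46 called values in all). The strain contrasts of a gene share libraries and are not independent. A low strain raises the contrasts of the others, and a high strain lowers them. Over strains, 3 of the 9 members tested in liver were called against a background of 53.0% of genes tested, since Scd4 did not pass the filter on low counts there. In brown fat 7 of 10 were called (background 56.8%), in subcutaneous fat 8 of 10 (65.6%), in visceral fat 3 of 10 (40.1%) and in muscle 4 of 10 (45.5%). These shares straddle the background, so differing between strains does not mark the family as such. Without the left-out libraries the counts were 7 in brown fat (55.1%), 6 in subcutaneous fat (60.9%), 5 in visceral fat (34.0%) and 9 in muscle (57.1%). Reads of the 3 strains other than C57BL/6J were aligned with a relaxed mismatch penalty, so a C57BL/6J difference is also a difference of alignment setting, and these cannot be told apart.

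In liver, 2 members were called for C57BL/6J (background 26.7%), 4 for A/J (28.5%) and 1 for SJL (30.1%). In brown fat the counts were 3 for C57BL/6J (26.2%), 4 for A/J (35.8%), 2 for DBA/2J (34.8%) and 4 for SJL (23.9%). In subcutaneous fat, 2 members were called for C57BL/6J (25.0%), 2 for A/J (19.5%), 4 for DBA/2J (45.6%) and 6 for SJL (43.8%). Visceral fat gave 3 for A/J (13.4%) and 3 for DBA/2J (29.2%), and muscle gave 2 for C57BL/6J (27.3%) and 4 for SJL (37.2%). Against plain library totals, TMM scaling shifted these contrasts by over 0.1 (log2) for brown fat C57BL/6J (0.104), for visceral C57BL/6J (0.14) and DBA/2J (-0.17) and for muscle C57BL/6J (0.25) and SJL (-0.17). None of the 46 called strain differences took the other sign under the alternatives listed in the closing section. With limma on log2(TPM + 1), 11 of those tested were no longer called: Fads2 of A/J in liver, Scd1 of SJL in brown fat, Scd4 of A/J and of SJL in subcutaneous fat, Elovl1 and Scd2 of A/J and Scd1 of DBA/2J in visceral fat, and Scd2 of C57BL/6J and Fads1, Elovl2 and Elovl5 of SJL in muscle. With no filter on low counts 7 were no longer called: Fads2 of A/J in liver, Elovl1 of C57BL/6J and Scd1 of SJL in brown fat, Elovl3 of C57BL/6J and Scd4 of SJL in subcutaneous fat, Scd2 of A/J in visceral fat and Elovl5 of SJL in muscle.

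**Figure D2:**
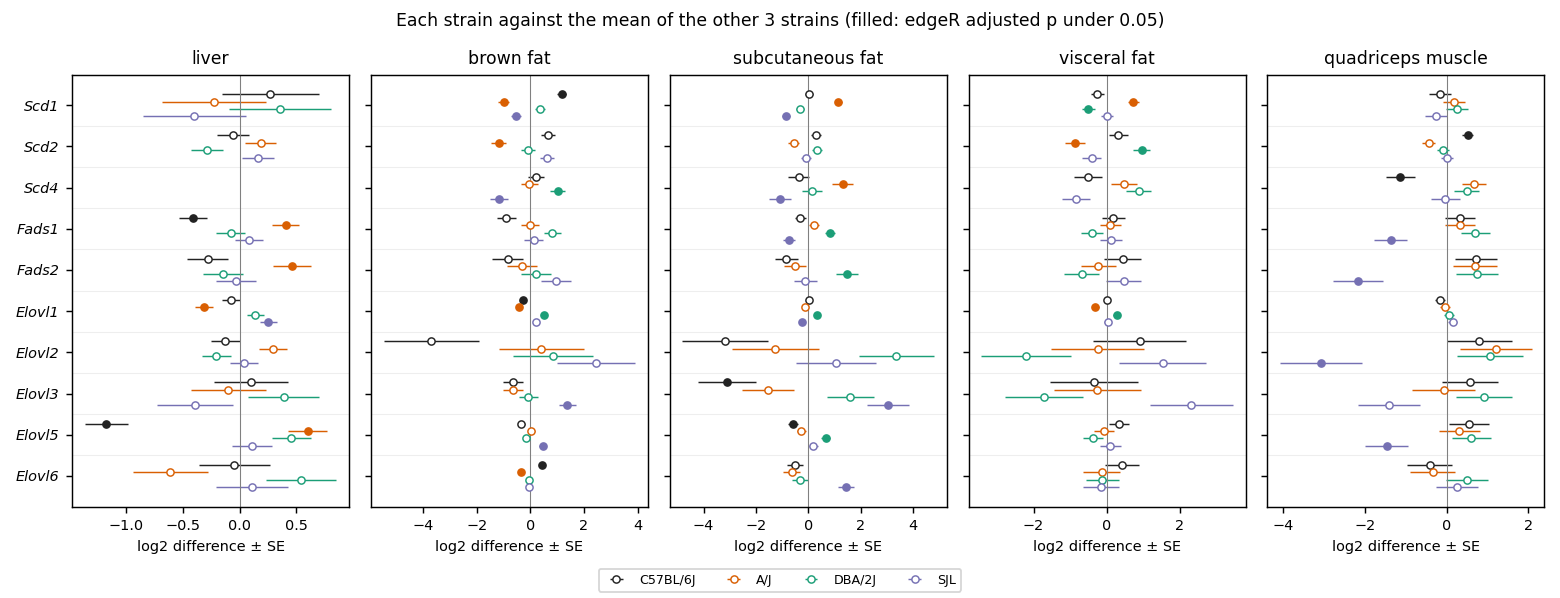
Difference of each strain from the mean of the other 3, in log2 with its standard error, for the 10 genes in 5 panels, 1 per tissue; filled points have an edgeR adjusted p under 0.05. Scd1 of A/J is below 0 in brown fat (-0.99) and above 0 in subcutaneous (1.15) and visceral fat (0.73).

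Scd1 differed between strains in all 3 fat depots, and A/J stood on opposite sides in brown and white fat. Values by strain are CPM scaled by TMM. In brown fat, the C57BL/6J libraries held 21187, 52122 and 82605 CPM (lowest, median and highest of 8) and the other 24 libraries held 5254, 21928 and 47226 CPM. In 5 of the 8 C57BL/6J libraries the value exceeded every other library (log2 difference 1.17, SE 0.18, edgeR adjusted p = 8.13e-06). C57BL/6J brown fat also held less of the brown adipocyte transcripts: Ucp1 was at 33.9% to 104.7% of the brown fat mean, against 76.1% to 148% in the other strains, and the 2 libraries with the most Scd1 (mice 2 and 9) had Ucp1 at 43.7% and 33.9%. The summed CPM of 5 brown adipocyte markers had medians of 6982 in C57BL/6J, 10761 in A/J, 9758 in DBA/2J and 10895 in SJL, and its part in the Scd1 values was not tested. A/J mice had 5254, 15165 and 35301 CPM in brown fat against 10393, 32855 and 82605 CPM in the other strains (log2 difference -0.99, SE 0.20, edgeR adjusted p = 0.000297), and 2 of their 8 libraries lay below all others. SJL was lower in the same depot (log2 difference -0.54, SE 0.19, edgeR adjusted p = 0.0415), a call that was lost without the left-out libraries (-0.31, adjusted p = 0.299) and when the library of mouse 2, 8, 9, 16, 24, 25, 39, 48, 49, 50, 53, 54 or 57 alone was omitted (adjusted p 0.0510 to 0.114).

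In subcutaneous fat the A/J libraries held 27754, 41740.4 and 66369.8 CPM of Scd1 and the other strains 10529, 20604 and 33799 CPM. A/J exceeded every other library in 6 of 8 cases (log2 difference 1.15, SE 0.14, edgeR adjusted p = 8.03e-07). SJL was on the low side, with 11426, 13520.5 and 25526 CPM against 10529, 24927 and 66369.8 CPM (log2 difference -0.85, SE 0.16, edgeR adjusted p = 0.000102), and the ranges overlapped. In visceral fat A/J was again higher, with 32765, 47388 and 74045 CPM against 16787, 31360.3 and 51120.1 CPM in the others (log2 difference 0.73, SE 0.16, edgeR adjusted p = 0.0018), while DBA/2J was lower (log2 difference -0.50, SE 0.17, edgeR adjusted p = 0.0264). The DBA/2J call was lost when the library of mouse 34, 39, 43 or 45 alone was omitted (adjusted p 0.0518 to 0.0717). Scd1 was not called over strains in liver (edgeR adjusted p = 0.734) or muscle (0.648). The summed CPM of 5 white adipocyte markers in subcutaneous fat had medians of 9450.0 in C57BL/6J, 8514 in A/J, 6599 in DBA/2J and 6388 in SJL, and its part in the Scd1 differences was not tested. In visceral fat the medians of this sum were 9509, 10236, 7051 and 13219 CPM in the same order, with SJL highest there.

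**Figure D3:**
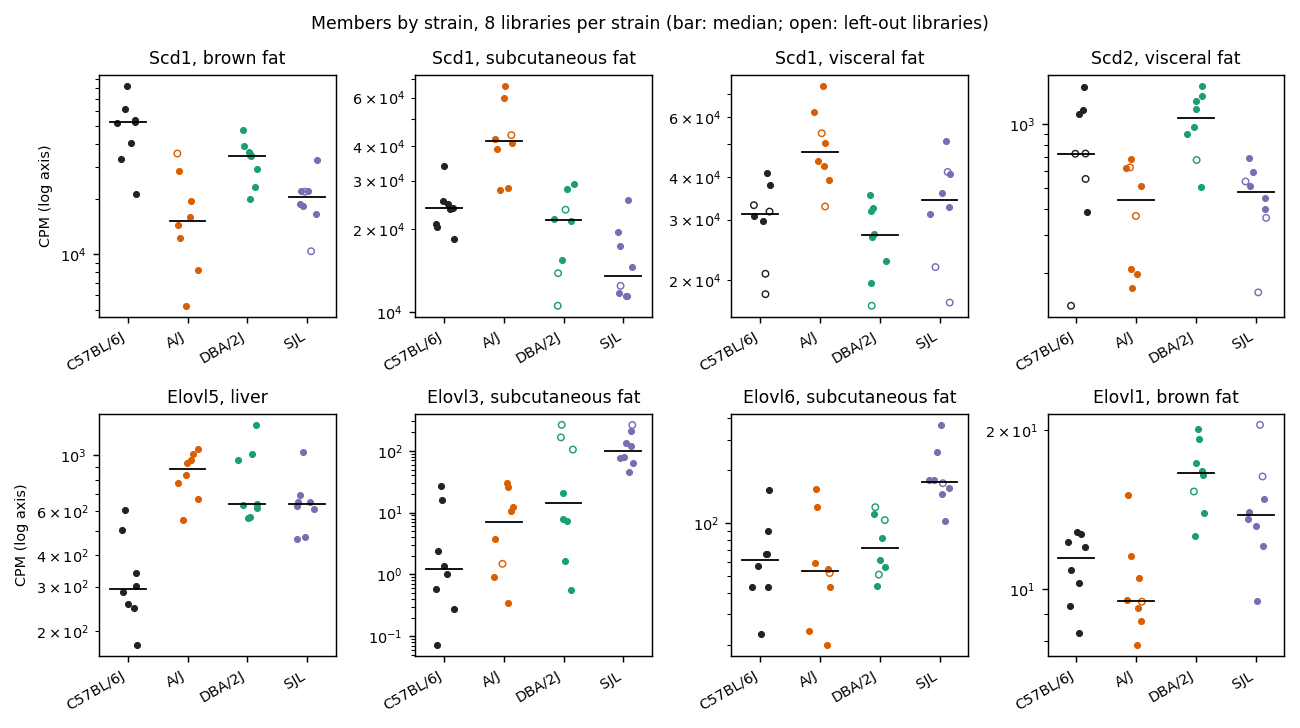
TMM-scaled CPM on a log axis, 1 point per library and a bar at each strain's median (8 libraries per strain), for 8 combinations of gene and tissue; open points are the left-out libraries. C57BL/6J is highest for Scd1 in brown fat (median 52122 CPM), A/J for Scd1 in subcutaneous fat (41740.4 CPM) and SJL for Elovl6 there (172 CPM).

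Scd2 took the side of Scd1 in A/J brown fat and the opposite side in A/J and DBA/2J visceral fat. In brown fat A/J held 27.9, 207 and 403 CPM of Scd2 against 157, 384 and 1255 CPM in the other strains (log2 difference -1.18, SE 0.28, edgeR adjusted p = 0.00193). In visceral fat, where A/J had more Scd1, it had less Scd2: 171, 440.2 and 687 CPM against 140.3, 683 and 1515 CPM (log2 difference -0.87, SE 0.27, edgeR adjusted p = 0.0296). DBA/2J was the reverse, with 505, 1072 and 1515 CPM of Scd2 against 140.3, 526 and 1484 CPM (log2 difference 0.96, SE 0.24, edgeR adjusted p = 0.00375) beside its lower Scd1. Ranges overlapped in each of these comparisons, and no test of Scd2 against Scd1 was made. The visceral A/J call was lost when the library of mouse 20, 22, 30 or 32 alone was omitted (adjusted p 0.0583 to 0.0857). In muscle, C57BL/6J held 45.4, 80.6 and 119 CPM of Scd2 against 29.0, 54.2 and 91.4 CPM (log2 difference 0.51, SE 0.14, edgeR adjusted p = 0.00805), with an adjusted p of 0.065 when C57BL/6J mouse 7 was omitted. Without the left-out libraries the muscle difference was 0.82 (edgeR adjusted p = 0.000217), and A/J was lower (log2 difference -0.57, adjusted p = 0.00797). Scd2 was not called over strains in liver (edgeR adjusted p = 0.212) or subcutaneous fat (0.0549).

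Scd4 differences were between very low levels. In brown fat DBA/2J had 0.575, 1.00 and 1.65 CPM against 0.148, 0.401 and 1.37 CPM (log2 difference 1.02, SE 0.28, edgeR adjusted p = 0.00505), and SJL had 0.180, 0.299 and 0.665 CPM against 0.148, 0.702 and 1.65 CPM (log2 difference -1.17, SE 0.33, edgeR adjusted p = 0.00934). In subcutaneous fat A/J was higher (log2 difference 1.31, edgeR adjusted p = 0.0159), but a single A/J library of the vegan diet held 16.6 CPM and the difference without it was 0.27 (adjusted p = 0.371). It was 1.20 (adjusted p = 0.0754) without the left-out libraries. SJL was lower there (log2 difference -1.07, adjusted p = 0.0349), and -0.83 without the left-out libraries (adjusted p = 0.17), and the call ended when mouse 53, 63 or 64 alone was omitted (adjusted p 0.0608 to 0.0868). In muscle C57BL/6J was lower (log2 difference -1.13, SE 0.36, edgeR adjusted p = 0.0185), with a median of 0.136 CPM against 0.222 CPM. Scd4 had a whole count in 63 of the 160 libraries, and which genes shared the split reads was not determined. Values this low carry that uncertainty.

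In liver, Elovl5 and Fads1 were lower in C57BL/6J and higher in A/J. Elovl5 had 175, 293 and 606 CPM in C57BL/6J and 465, 662 and 1322 CPM in the other 3 strains. In 6 of 8 cases a C57BL/6J library lay below every library of the others (log2 difference -1.17, SE 0.19, edgeR adjusted p = 1.77e-05), and the call held in each of the 32 fits that omitted 1 library. A/J was on the other side, with 553, 882 and 1063 CPM against 175, 608 and 1322 CPM (log2 difference 0.60, SE 0.17, edgeR adjusted p = 0.00807). The low C57BL/6J libraries are part of that comparison, and no A/J library exceeded every other library. Fads1 took the same order: C57BL/6J had 257, 288 and 552 CPM against 312, 443 and 613 CPM (log2 difference -0.41, SE 0.13, edgeR adjusted p = 0.0141), and 5 of 8 libraries lay below all others. In A/J, Fads1 was higher (log2 difference 0.41, SE 0.12, edgeR adjusted p = 0.00956), again with the low C57BL/6J libraries in the comparison. Fads2 in A/J was higher (log2 difference 0.46, SE 0.17, edgeR adjusted p = 0.0399), though it was not called over all strains (adjusted p = 0.103) and the A/J call ended when any 1 of 15 libraries was omitted (adjusted p 0.0503 to 0.101), those of mouse 1, 13, 16, 24, 25, 27, 30, 32, 39, 42, 43, 45, 50, 54 or 57. One C57BL/6J liver on the vegetarian diet, mouse 12, weighed on the family: without it Fads2 had an adjusted p over strains of 0.00924 and Elovl2 of 0.00119, against 0.103 and 0.149 with it. The summed CPM of 7 hepatocyte markers in liver was 83012 to 120611 in C57BL/6J, 135593 to 164055 in A/J, 100761 to 131031 in DBA/2J and 90254 to 153324 in SJL. C57BL/6J and A/J did not overlap in this sum, which moved in the same direction as Elovl5 and Fads1, and its part in them was not tested. Elovl2, Elovl3 (edgeR adjusted p = 0.594) and Elovl6 (0.267) were not called over strains in liver.

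Promoter windows of 250 bases before to 50 bases after a transcription start were taken from the RefSeq table of GRCm38.p6, which held Elovl1, Elovl2, Elovl5, Elovl6, Fads2 and Scd4, and each was placed by its sequence, which matched once, in GRCm39. Scd1, Scd2, Fads1 and Elovl3 had no entry. The Elovl5 window is shown because Elovl5 carried the largest called liver difference, and an Elovl1 window because Elovl1 was called over strains in 4 tissues, the one nearer the annotated gene start of 2 in the table; capitals mark the CCAAT letters of the NF-Y box, on either strand. Elovl5 lies at chr9:77824397-77824696 on the plus strand and Elovl1 at chr4:118285040-118285339 on the plus strand, at starts 6534 and 944 bases inside the annotated genes.
Elovl5: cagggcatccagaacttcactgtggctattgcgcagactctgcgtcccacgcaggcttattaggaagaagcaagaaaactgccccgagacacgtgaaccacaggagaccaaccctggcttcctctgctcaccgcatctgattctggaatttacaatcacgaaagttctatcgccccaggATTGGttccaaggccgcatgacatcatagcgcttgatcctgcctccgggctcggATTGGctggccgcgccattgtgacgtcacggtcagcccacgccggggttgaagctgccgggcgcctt
Elovl1: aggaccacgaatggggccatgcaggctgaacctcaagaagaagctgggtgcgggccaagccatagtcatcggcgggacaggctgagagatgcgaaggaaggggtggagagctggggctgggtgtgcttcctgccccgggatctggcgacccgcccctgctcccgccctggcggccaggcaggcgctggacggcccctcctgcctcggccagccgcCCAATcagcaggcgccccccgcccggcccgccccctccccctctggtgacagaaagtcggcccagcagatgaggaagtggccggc
The Elovl5 window held NF-Y boxes at positions -71 and -17 and an E-box (CACGTG) at -161, counted from the start site. The Elovl1 window shown held an NF-Y box at -35 and 5 GC boxes (GGGCGG), and the other Elovl1 window, at a start 2552 bases inside the gene, held no NF-Y box and 2 GC boxes. None of the 8 windows of the 6 genes held the sterol regulatory element letters TCACNCCAC. Of all 32851 windows in the table, 37.4% held an NF-Y box, 35.7% a GC box, 7.15% an E-box and 1.24% the sterol regulatory element letters, searched on both strands. These are matches of letters in a window and no binding was measured.

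In subcutaneous fat, SJL had the least Fads1. Its libraries held 35.4, 45.5 and 136 CPM against 59.4, 84.9 and 333 CPM in the other strains, and 6 of 8 lay below every other library (log2 difference -0.74, SE 0.22, edgeR adjusted p = 0.00742). Without the left-out libraries the SJL difference was -0.83 (adjusted p = 6.29e-08). DBA/2J was on the high side for Fads1 (0.82, SE 0.20, edgeR adjusted p = 0.00183), Fads2 (1.46, SE 0.42, adjusted p = 0.00641) and Elovl5 (0.66, SE 0.17, adjusted p = 0.00287). Without the left-out libraries only Fads1 of these 3 was still called (0.36, adjusted p = 0.00306), while Fads2 came to 0.10 (adjusted p = 0.647) and Elovl5 to 0.09 (adjusted p = 0.31). Omitting DBA/2J mouse 38 alone gave Fads2 an adjusted p of 0.099. The hepatocyte sum in subcutaneous fat ran up to 65092 CPM in DBA/2J and 31939.5 CPM in SJL, against 5008 CPM in C57BL/6J and 2467 CPM in A/J, so its highest libraries fell in the strain with higher Fads2. Elovl5 was lower in C57BL/6J subcutaneous fat (log2 difference -0.59, edgeR adjusted p = 0.0177) and at -0.32 (adjusted p = 0.000183) without the left-out libraries. Omitting mouse 7 or 8 alone ended that call (adjusted p 0.0524 to 0.0528).

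In brown fat, SJL had more Elovl5, with 152, 183 and 285 CPM against 95.6, 132 and 237 CPM (log2 difference 0.46, SE 0.12, edgeR adjusted p = 0.00626), and the ranges overlapped. Over all strains Elovl5 there had an adjusted p of 0.00941, and 0.0642 without the left-out libraries. Fads1 in brown fat was not called over strains (edgeR adjusted p = 0.0631) but was without the left-out libraries (adjusted p = 1.62e-06). In the libraries that remained DBA/2J had more Fads1 (log2 difference 1.01, SE 0.14, edgeR adjusted p = 2.1e-06) and SJL less (-0.87, SE 0.16, adjusted p = 0.000217), with medians of 30.1 and 12.8 CPM, the sides that these strains took in subcutaneous fat. In visceral fat Fads1 had an adjusted p over strains of 0.669, and 0.0164 without them, where A/J was higher (0.42, SE 0.11, adjusted p = 0.0148). Fads2 and Elovl5 were not called in visceral fat either way (adjusted p = 0.477 and 0.55 with all libraries). Elovl2 was not called over strains in any tissue with all libraries.

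SJL subcutaneous fat stood out for Elovl3 and Elovl6. Elovl3 had 46.1, 101 and 262 CPM in SJL against 0.0716, 5.54 and 265 CPM in the other strains (log2 difference 3.04, SE 0.80, edgeR adjusted p = 0.00299). Elovl6 had 102, 172 and 364 CPM in SJL against 20.0, 57.8 and 156 CPM (log2 difference 1.44, SE 0.29, edgeR adjusted p = 0.00021), and 6 of 8 SJL libraries exceeded every other library. The same fat of SJL held more brown adipocyte transcripts: the sum of Ucp1, Cidea, Cox7a1, Cox8b and Ppargc1a was 1556 to 4153 CPM in SJL, against 66.0 to 1245 in C57BL/6J, 73.0 to 2281 in A/J and 64.5 to 317 in DBA/2J. Brown fat itself held 7308 to 12329 CPM of the sum in SJL. Elovl3 and Elovl6 are both higher in brown than in subcutaneous fat (log2 difference 2.95 and 3.62), and the part of the brown adipocyte transcripts in the SJL values was not tested. Without the left-out libraries the SJL differences were 3.71 (adjusted p = 0.000467) for Elovl3 and 1.49 (adjusted p = 0.00136) for Elovl6. C57BL/6J subcutaneous fat had less Elovl3 (log2 difference -3.12, SE 1.11, edgeR adjusted p = 0.0396), which was not called without the left-out libraries (adjusted p = 0.228) or when the library of mouse 2, 7, 8, 9, 12, 13, 18, 34, 45 or 64 alone was omitted (adjusted p 0.0549 to 0.0837).

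SJL also had more Elovl3 in brown fat, 295, 391 and 418 CPM against 28.6, 137 and 488 CPM (log2 difference 1.37, SE 0.33, edgeR adjusted p = 0.00243), where the brown adipocyte sum overlapped between the strains. Elovl6 in brown fat was higher in C57BL/6J, the strain with less of the brown adipocyte sum, and lower in A/J, as Scd1 was. C57BL/6J had 627, 1021 and 1165 CPM against 489, 683 and 960.4 CPM (log2 difference 0.44, SE 0.10, edgeR adjusted p = 0.00146), and A/J was lower (log2 difference -0.35, SE 0.11, edgeR adjusted p = 0.0108). In visceral fat neither gene was called over strains (adjusted p = 0.254 for Elovl3 and 0.876 for Elovl6). One A/J visceral library on the Mediterranean diet, mouse 24, held 406 CPM of Elovl6 against 12.8 to 53.0 CPM in the other 7 of that strain. Without that library Elovl6 was called over strains in visceral fat (edgeR adjusted p = 0.00474). The A/J visceral libraries reached 4178 CPM of the brown adipocyte sum, against a median of 83.5 CPM.

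Elovl1 differences were small. A/J was lower in 3 tissues and DBA/2J higher in 3, while SJL took both sides. A/J was lower in brown fat, with 7.85, 9.52 and 15.1 CPM against 8.29, 13.4 and 20.4 CPM (log2 difference -0.43, SE 0.10, edgeR adjusted p = 0.00103), and 1 of 8 libraries lay below all others. A/J was also lower in liver (log2 difference -0.31, SE 0.077, edgeR adjusted p = 0.00226) and in visceral fat (log2 difference -0.31, SE 0.088, adjusted p = 0.0176). DBA/2J was higher in brown fat, with 12.6, 16.6 and 20.0 CPM against 7.85, 11.8 and 20.4 CPM (log2 difference 0.49, SE 0.093, edgeR adjusted p = 0.000106), in subcutaneous fat (log2 difference 0.32, SE 0.066, adjusted p = 0.000286) and in visceral fat (log2 difference 0.27, SE 0.085, adjusted p = 0.0159). The ranges of DBA/2J and the others overlapped. Both visceral calls were lost with 1 library left out: omitting A/J mouse 24 gave an adjusted p of 0.053 and omitting DBA/2J mouse 39 gave 0.0528. The A/J call also ended without the left-out libraries (-0.23, adjusted p = 0.0807). SJL was higher in liver (log2 difference 0.25, adjusted p = 0.0105) and lower in subcutaneous fat (log2 difference -0.23, adjusted p = 0.00657). C57BL/6J was lower in brown fat (log2 difference -0.27, adjusted p = 0.0381), a call that ended without the left-out libraries (adjusted p = 0.0596) and when any 1 of 14 libraries was omitted (adjusted p 0.0502 to 0.0985), those of mouse 1, 2, 8, 9, 12, 13, 18, 24, 32, 38, 39, 45, 54 or 57.

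In muscle, the 4 genes of the polyunsaturated pathway were lower in SJL, the strain with the lowest median and maximum of hepatocyte transcripts in muscle. Fads2 had 8.19, 9.54 and 20.4 CPM in SJL against 8.58, 37.4 and 199.8 CPM in the other strains (log2 difference -2.16, SE 0.61, edgeR adjusted p = 0.00683). Fads1 had 15.7, 18.1 and 23.6 CPM against 13.8, 37.5 and 152 CPM (log2 difference -1.36, SE 0.40, edgeR adjusted p = 0.00943). Elovl2 had 1.62, 4.14 and 11 CPM against 0.0803, 30.8 and 183 CPM (log2 difference -3.07, SE 1.00, edgeR adjusted p = 0.0179), and Elovl5 was lower (log2 difference -1.46, SE 0.53, adjusted p = 0.0324), a call that ended when mouse 9, 50, 53, 54, 63 or 64 alone was omitted (adjusted p 0.0511 to 0.0703). All ranges overlapped. The hepatocyte sum in muscle reached 30781 CPM in C57BL/6J, 30854 in A/J and 50113 in DBA/2J but 2627 in SJL, with medians of 7175, 6083, 7015 and 1079 CPM, and none of the 8 left-out muscle libraries was from SJL. Without those 8, the SJL differences came to -0.93 for Fads2 (adjusted p = 0.0319), -0.52 for Fads1 (0.0191), -0.98 for Elovl2 (0.28) and -0.33 for Elovl5 (0.245). Over the same 24 libraries C57BL/6J was lowest for Elovl2 (-2.93, adjusted p = 0.035) and Elovl5 (-0.77, adjusted p = 0.0392), and DBA/2J was higher for Fads1 (0.85, adjusted p = 0.00141) and Fads2 (1.20, adjusted p = 0.0148). C57BL/6J mice 1, 8, 9 and 13 were among the left-out. The remaining libraries still held Alb, at 0.0254% to 0.977% of the liver mean in C57BL/6J and 1.09% to 9.36% in DBA/2J. A/J had 0.0105% to 8.67% and SJL 0.291% to 2.20%. The part of this Alb-linked RNA in the new order was not tested. In the plot of these genes against Alb, Elovl2 followed Alb over its whole range, and Fads1, Fads2 and Elovl5 were higher in libraries with more Alb, also below the limit of 10% of the liver mean. Whether any of these muscle differences belongs to muscle fibres was not tested.

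**Figure D4:**
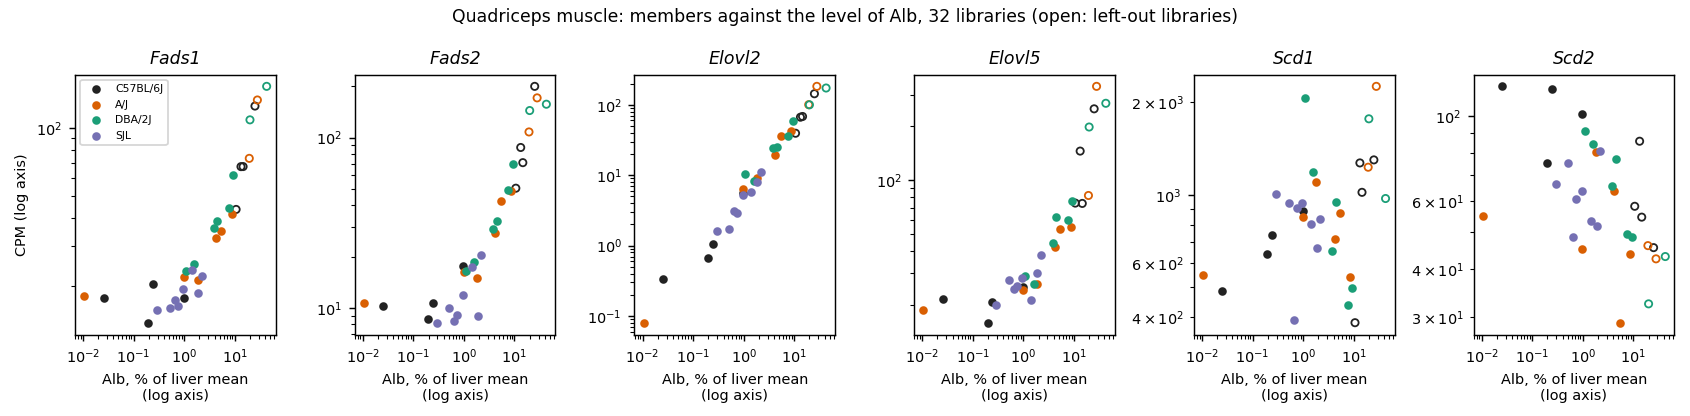
TMM-scaled CPM of 6 members in the 32 muscle libraries (vertical, log axis) against Alb as a percent of its liver mean (horizontal, log axis), coloured by strain. Elovl2, Fads2, Fads1 and Elovl5 are higher in libraries with more Alb, with Elovl2 between 0.0803 and 183 CPM, while Scd1 shows no order along Alb and Scd2 is lower in the libraries with most Alb.

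No member was called over the 4 diets in any tissue by edgeR. The background was 0.102% of genes in liver, 0.421% in brown fat, 0.0% in subcutaneous fat, 0.0% in visceral fat and 0.0% in muscle, so diet called almost no gene of any kind. At an unadjusted p under 0.05 the members counted 0 of 9 in liver, 3 of 10 in brown fat (Scd1, Scd2 and Elovl1), 2 in subcutaneous fat (Scd1 and Scd2), 2 in visceral fat (Scd2 and Scd4) and 1 in muscle (Scd2). Of all genes tested, 2619 of 18636 in liver, 2585 of 20210 in brown fat and 729 of 23508 in subcutaneous fat had such a p. In visceral fat 999 of 22715 had it, and in muscle 589 of 20118. DESeq2 called 2 members, both in brown fat: Scd1 (adjusted p = 0.0194) and Scd2 (0.011). By edgeR these had adjusted p values of 0.109 and 0.121, and limma on log2(TPM + 1) called none. The share of all genes that DESeq2 called over diets is not given here.

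Scd1 in brown fat and liver and Scd2 in brown fat had lower medians on the vegan than on the American diet, within ranges that overlapped and without passing the test. Scd2 in brown fat had 331, 475 and 1255 CPM on the American and 27.9, 209 and 479 CPM on the vegan diet (log2 difference -1.38, SE 0.33, edgeR adjusted p = 0.0893). Scd1 in brown fat had 21888, 37002 and 82605 CPM on the American and 5254, 22649.9 and 53943 CPM on the vegan diet (-0.90, SE 0.23, adjusted p = 0.101). Scd1 in liver had 1068, 4935 and 8893 CPM on the American and 1088, 2282 and 2830.2 CPM on the vegan diet (-1.16, SE 0.55, adjusted p = 0.397). In visceral fat Scd2 had a difference of -1.05 (SE 0.32, adjusted p = 0.463). The vegan minus American estimates of Scd1 in subcutaneous fat, visceral fat and muscle were -0.58 (SE 0.19), -0.44 (SE 0.20) and -0.12 (SE 0.33). With SEs of 0.19 to 0.55 for Scd1 the precision differed between tissues.

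The genes that act on dietary linoleate and alpha-linolenate were not called over diets in liver. Median CPM of Fads2 there was 539 on the American, 591 on the Mediterranean, 526 on the vegetarian and 659 on the vegan diet (edgeR adjusted p over diets = 0.897). For Fads1 it was 404 on the American, 428 on the Mediterranean, 381 on the vegetarian and 475 on the vegan diet (adjusted p = 0.818). Elovl5 had medians of 743 on the American, 613 on the Mediterranean, 621 on the vegetarian and 636 on the vegan diet (adjusted p = 0.824). Against the American diet, the vegan diet gave log2 differences of 0.23 (SE 0.21) for Fads2, 0.17 (SE 0.15) for Fads1 and -0.28 (SE 0.22) for Elovl5. The SEs bound these differences rather than show that there was none. By strain, Fads2 was 935 and 1005 CPM on the vegan against 585 and 579 CPM on the American diet in A/J. In SJL it was 721 and 881 against 445 and 499 CPM. C57BL/6J had 382 and 412 against 409 and 471 CPM, and DBA/2J had 346 and 597 against 730 and 622 CPM. Fads2 in liver did not reach an unadjusted p under 0.05 in the edgeR test of the strain by diet interaction. Mice of one strain and diet could also lie far apart, as C57BL/6J mice 9 and 12 on the vegetarian diet did, at 258 and 897 CPM. Elovl6 in liver had medians of 84.8 on the American, 58.6 on the Mediterranean, 86.3 on the vegetarian and 64.0 on the vegan diet (adjusted p = 0.606).

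**Figure D5:**
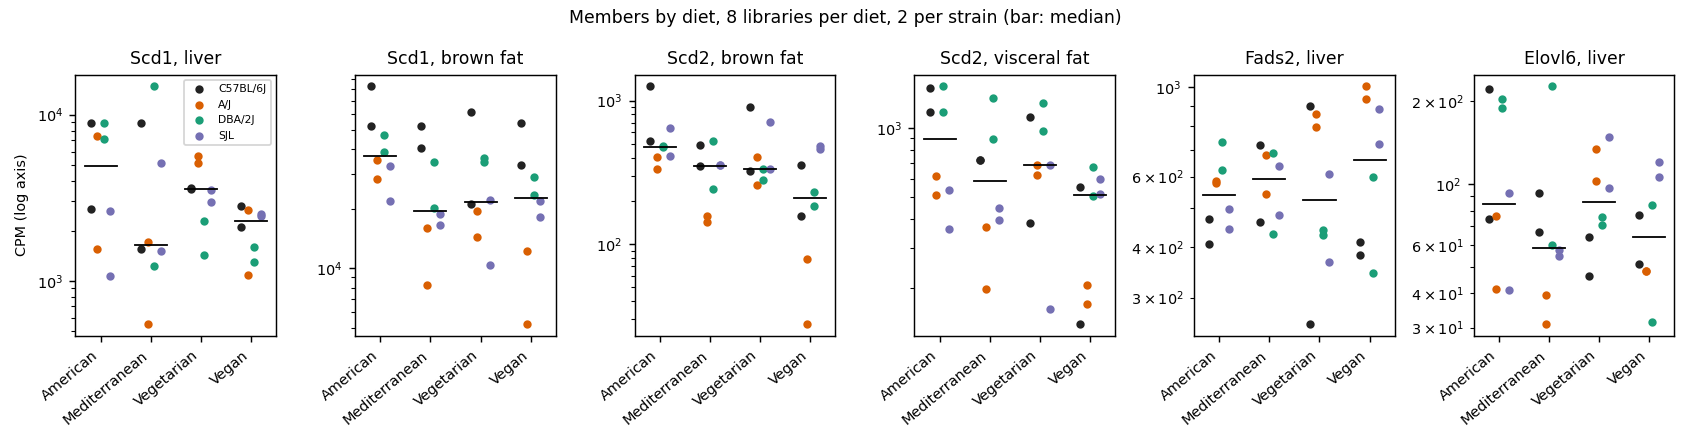
TMM-scaled CPM by diet on a log axis for Scd1, Scd2, Fads2 and Elovl6 in 6 combinations with tissue, 8 libraries per diet, coloured by strain, with a bar at the median. The 4 diets overlap in every panel; the median of Scd2 in brown fat is 475 CPM on the American and 209 CPM on the vegan diet.

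Whether strains differed in their response to the diets was tested by the interaction of strain and diet, with 2 libraries per combination. No member was called by edgeR in any tissue, and the background was 0.0% in liver, 0.0099% in brown fat, 0.0% in subcutaneous fat, 0.392% in visceral fat and 0.0% in muscle. At an unadjusted p under 0.05 there were 2 members in liver (Elovl1 and Elovl6), 2 in brown fat (Elovl2 and Elovl5), 1 in subcutaneous fat (Scd4), 4 in visceral fat (Fads1, Fads2, Elovl5 and Elovl6) and 0 in muscle. Of all genes tested, 1508 of 18636 in liver, 1596 of 20210 in brown fat and 1242 of 23508 in subcutaneous fat had such a p. In visceral fat 3338 of 22715 had it, and in muscle 1372 of 20118. DESeq2 called 1 in liver (Elovl6, adjusted p = 0.0413), 2 in brown fat (Elovl2, 0.0311, and Elovl5, 0.0341) and 3 in visceral fat (Elovl3, 0.0191, Elovl5, 0.00159, and Elovl6, 0.00193), and none in the other 2 tissues. Limma on log2(TPM + 1) called none in any tissue. The share of all genes that DESeq2 called for the interaction is not given here.

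Genes that feed the pathway were read beside it. For the synthesis of new palmitate and stearate (Acly, Acaca, Acacb, Fasn, Me1, Thrsp, Slc25a1 and, from the family, Elovl6), 2 of 8, 7 of 8, 7 of 8, 5 of 8 and 2 of 8 tested genes were called over strains in liver, brown, subcutaneous and visceral fat and muscle, against 53.0%, 56.8%, 65.6%, 40.1% and 45.5% of all genes tested. In SJL subcutaneous fat 6 of the 8 were higher and 0 lower (background 43.8% called in either direction), with a median of 0.72 against 0.017 over all genes tested. Acacb, one of the acetyl-CoA carboxylases that supply malonyl-CoA, was higher there (log2 difference 2.22, SE 0.20, edgeR adjusted p = 1.63e-09). The brown adipocyte sum of SJL subcutaneous fat, 1556 to 4153 CPM against medians of 93.5, 186 and 121 CPM in C57BL/6J, A/J and DBA/2J, moved with these genes, and its part was not tested. Scd1 was lower in the same tissue of SJL (-0.85), on the opposite side to these. A/J subcutaneous fat, where Scd1 was higher, had 1 of the 8 called (background 19.5%), Slc25a1, and on the lower side. In brown fat the directions matched: C57BL/6J had 5 of 8 higher and 0 lower (background 26.2%, a median of 0.48 against -0.021 over all genes tested), Acaca among them (log2 difference 1.22, SE 0.16, edgeR adjusted p = 9.99e-07), and A/J had 5 lower and 0 higher (background 35.8%). The lower brown adipocyte sum of C57BL/6J brown fat stood beside this too. In visceral fat, C57BL/6J had 4 of 8 higher (background 12.5%), with the malic enzyme Me1 at 1.25 (SE 0.12, edgeR adjusted p = 1.71e-08), and DBA/2J had 4 lower (background 29.2%). With all the left-out visceral libraries omitted, DBA/2J had 4 lower and 3 higher, and A/J went from 0 to 4 lower. Without those libraries 34.0% of all genes tested in visceral fat were called over strains, and the shares for DBA/2J and A/J alone are not given here.

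Of the other desaturases and elongases (Scd3, Fads3, Fads6, Degs1, Degs2, Elovl4 and Elovl7), 2 of 6, 6 of 7, 6 of 7, 4 of 7 and 1 of 5 of those tested were called over strains in the same order of tissues, with the same background shares. Scd3, a copy in the Scd cluster, was higher in A/J subcutaneous fat (log2 difference 2.03, SE 0.35, edgeR adjusted p = 8.48e-05) and in C57BL/6J brown fat (log2 difference 2.11, SE 0.37, edgeR adjusted p = 7.08e-05), the same strains and tissues as Scd1. Fads3, a relative of Fads1 and Fads2, was higher in DBA/2J subcutaneous fat (log2 difference 1.09, SE 0.16, edgeR adjusted p = 4.84e-06) and lower in SJL subcutaneous fat (log2 difference -1.61, SE 0.19, edgeR adjusted p = 9.63e-08), the sides that Fads1 took. Elovl4, known for the very-long chains of retina and skin, was lower in DBA/2J brown fat (log2 difference -4.11, SE 0.23, edgeR adjusted p = 5.88e-15). Degs1, the desaturase that makes ceramide, was higher in DBA/2J subcutaneous fat (log2 difference 1.00, adjusted p = 2.23e-11).

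The partner enzymes of elongation and desaturation (10 genes: Hsd17b12, Hacd1, Hacd2, Hacd3, Hacd4, Tecr, Cyb5a, Cyb5b, Cyb5r1 and Cyb5r3) were called over strains in 9 of 10, 7 of 10, 8 of 10, 3 of 10 and 3 of 10, against the same background of 53.0%, 56.8%, 65.6%, 40.1% and 45.5%. In liver, where Elovl1 and Elovl5 differed, A/J had 2 of these higher and 5 lower (background 28.5%), with a median of -0.15 against 0.0011 over all genes tested. The lipogenic regulators counted 6 of 11, 6 of 11, 4 of 11, 6 of 11 and 6 of 11. Insig1, which holds sterol regulatory element binding proteins back in the endoplasmic reticulum, was higher in C57BL/6J brown fat (log2 difference 0.74, SE 0.14, edgeR adjusted p = 0.000219) and lower in A/J brown fat (log2 difference -0.69, adjusted p = 0.000859), the sides of Scd1 and Elovl6 there. In A/J subcutaneous fat Insig1 was lower (log2 difference -0.85, adjusted p = 0.000317), opposite to Scd1. In muscle, SJL had 6 of 11 regulators lower, Srebf1 among them (log2 difference -0.78, SE 0.13, edgeR adjusted p = 2.72e-05), and 7 of 10 genes of activation, peroxisomal shortening and phospholipid uptake lower (background 37.2%). SJL muscle also held the least hepatocyte transcripts, with a median sum of 1079 CPM against 6083 to 7175 CPM in the other strains, and their part in these counts was not tested. Of the 11 regulators, 7 were lower and 0 higher without the left-out libraries, and of the last list 4 were lower and 1 higher. Without those libraries 57.1% of all genes tested in muscle were called over strains, and the share for SJL alone is not given here. That last list counted 10 of 10, 5 of 10, 6 of 10, 2 of 10 and 5 of 10 over strains, against the same background. Over the diets, edgeR called 0 of 227 tests of the 5 lists over the 5 tissues (33 at an unadjusted p under 0.05) and DESeq2 called 2. For the interaction edgeR called 0 (30 at an unadjusted p under 0.05) and DESeq2 called 14. The unadjusted counts over all genes stand with the diet and interaction tests of the members above, and those of DESeq2 are not given here.

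The genes whose pattern was most like each member were ranked by Pearson r of log2 CPM among genes that averaged at least 5 CPM. This leaves out Scd4. Over the 160 libraries (12610 genes), where the points share tissue and mouse, the closest genes to the polyunsaturated pathway were Gm47544 (r = 0.99), Apoa5 (0.99) and Acsm1 (0.99) for Elovl2, Fam20a (r = 0.98), Chn2 (0.97) and Lrrc3 (0.97) for Fads1, Lsr (r = 0.98), Gm4673 (0.98) and Epha1 (0.98) for Fads2 and C1rl (r = 0.96), Slc46a1 (0.96) and Cat (0.96) for Elovl5. Elovl6 was closest to the citrate lyase Acly (r = 0.95), Sfxn5 (0.93) and Eno1 (0.92). Scd1 was closest to Gm6951 (r = 0.92), Phka2 (0.92) and Sowahc (0.91), and Scd2 to Mir5114 (r = 0.98), Serpinh1 (0.95) and Ptger3 (0.95), of which Mir5114 lies within Scd2. Elovl3 was closest to Kng2 (r = 0.94), Cpn2 (0.94) and Aspg (0.93) and Elovl1 to Rab32 (r = 0.97), Tmem176b (0.95) and Alcam (0.95).

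Over the 32 liver libraries, after strain and diet were removed (10142 genes), Fads1, Fads2, Elovl2 and Elovl5 each had another of these genes as the closest one. Fads1 was closest to Fads2 (r = 0.91), Gabbr2 (0.80) and Elovl2 (0.80), and Fads2 to Fads1 (r = 0.91), Elovl2 (0.79) and Gabbr2 (0.76). Elovl2 was closest to Fads1 (r = 0.80), Elovl5 (0.80) and Fads2 (0.79), and Elovl5 to Elovl2 (r = 0.80), Scd1 (0.72) and Nadk (0.71). Elovl6 and Scd1 lay with genes of fatty acid synthesis, Elovl6 with Acly (r = 0.89), Acacb (0.88) and Acaca (0.87), and Scd1 with Acacb (r = 0.88), Me1 (0.82) and Tmem135 (0.79). Elovl1 was closest to the enoyl reductase Tecr (r = 0.89), Alg3 (0.86) and Rab5c (0.85), Elovl3 to Pnkd (r = 0.84), Ppard (0.82) and Cldn1 (0.79) and Scd2 to Gabbr2 (r = 0.73), Gm11437 (0.72) and Btg3 (0.70). These r values describe 32 libraries that differ in depth, and carry no test. The C57BL/6J vegetarian mouse 12 held 1076 CPM of Elovl2, 897 of Fads2, 552 of Fads1 and 606 of Elovl5. Mouse 9, of the same strain and diet, held 401, 258, 257 and 302 CPM, and r without mouse 12 was not computed.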

How the data were processed

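Fractional read counts per gene and TPM were deposited by the authors. Reads were trimmed with Trim Galore, checked with FastQC, aligned with HISAT2 to GRCm39 with a relaxed mismatch penalty for strains other than C57BL/6J and counted with HTSeq, which splits a read that fits several genes, per the labels. For tool versions, annotation release and strandedness of counting, no statement was found in the sources used. The deposited estimated counts were rounded to whole numbers, and genes with low counts were removed with filterByExpr (minimum count 10, minimum total 15). Counts were tested with edgeR 4.0.16 (quasi-likelihood, TMM scaling) in R 4.3.3, with Benjamini-Hochberg adjustment over all genes tested and a threshold of 0.05. Samples were grouped by the labelled strain, diet and tissue. The scripts were tested on simulated data. Results were recomputed with DESeq2 1.42.0, RLE size factors, no low-count filter, limma 3.58.1 on log2(TPM + 1) of genes averaging 1 TPM or more, omission of each library or mouse, omission of 27 libraries with transcripts of another tissue, and the mouse as a block between tissues. An earlier form of edgeR's quasi-likelihood method was added after seeing the data. Members and gene lists were chosen with earlier results of these data known. All members were to be named; from each pathway list up to 4 genes with the smallest adjusted p, and per member the 3 genes of highest r. Slc25a1 was named after its value was seen. All 160 libraries were used.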

Additional observations from a re-analysis of the deposited data

Results flagged for a closer look

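For every member, tissue and strain, the 8 libraries were searched for a lowest or highest library that stood apart. Its gap to its nearest neighbour had to exceed, as a share of the whole range, Dixon's 95% limit for 8 values. Gap and range were taken on log2(CPM + 1), so shares read from the CPM printed below differ. This held in 17 of 188 groups, and chance flags about 1 in 20. Each value below is given with the range of the other 7 libraries of that strain and tissue.

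In liver, the C57BL/6J mouse 12 on the vegetarian diet had Elovl2 at 1076 CPM against 373 to 498 CPM in the other 7, and the C57BL/6J mouse 2 on the American diet had Elovl6 at 222 CPM against 46.2 to 92.4 CPM in the other 7.

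In fat, most such values came from libraries that also held Alb. Subcutaneous fat of SJL mouse 64 (vegan diet), with Alb at 26.5% of the liver mean, had Fads1 at 136 CPM against 35.4 to 60.9 CPM in the other 7, Fads2 at 147 CPM against 20.0 to 35.8 CPM in the other 7 and Elovl5 at 288 CPM against 126 to 172 CPM in the other 7. Brown fat of A/J mouse 17 (American diet), with Alb at 10.5%, had Fads1 at 60.9 CPM against 18.6 to 29.8 CPM in the other 7 and Fads2 at 61.2 CPM against 10.6 to 22.5 CPM in the other 7. Brown fat of C57BL/6J mouse 16 (vegan diet), with Alb at 2.16%, had Fads2 at 27.4 CPM against 8.49 to 13.0 CPM in the other 7 and Elovl2 at 10.7 CPM against 0 to 0.468 CPM in the other 7. Visceral fat of SJL mouse 57 (vegetarian diet), with Alb at 41.1%, had Scd2 at 162 CPM against 363 to 689 CPM in the other 7, and visceral fat of A/J mouse 24 (Mediterranean diet), with Alb at 22.5% of the liver mean and Ucp1 at 42.6% of the brown fat mean, had Elovl6 at 406 CPM against 12.8 to 53.0 CPM in the other 7. Subcutaneous fat of C57BL/6J mouse 1 (American diet), with Alb at 3.97%, had Fads2 at 45.2 CPM against 21.4 to 28.2 CPM in the other 7 and Elovl2 at 16.9 CPM against 0.0716 to 1.39 CPM in the other 7. The part of liver or brown fat transcripts in these values was not tested.

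Scd4 stood apart in subcutaneous fat of A/J mouse 32 (vegan diet), at 16.6 CPM against 0.979 to 3.23 CPM in the other 7, in visceral fat of C57BL/6J mouse 1 (American diet), at 7.46 CPM against 0.216 to 0.995 CPM in the other 7, and in visceral fat of A/J mouse 20 (American diet), at 7.06 CPM against 0.799 to 2.29 CPM in the other 7. In muscle of SJL mouse 64 (vegan diet), Scd1 was at 392 CPM against 673 to 1005 CPM in the other 7.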

How the results depend on the processing

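The counts of members called over strains were most unstable in muscle, where 4 were called with all libraries, 9 without the left-out libraries, 1 with no filter on low counts and 1 with limma. With single muscle libraries omitted the count ran from 2 to 5, and it was 2 without C57BL/6J mouse 7 or without any of SJL mice 49, 50, 53, 54, 57, 63 and 64. In visceral fat it was 5 without the left-out libraries against 3. In liver it ran from 3 to 5 with single libraries omitted, and was 5 without C57BL/6J mouse 12. DESeq2 called 2 members over diets in brown fat and, for the interaction, 1 in liver, 2 in brown fat and 3 in visceral fat, where edgeR called 0. For the interaction in visceral fat the count ran from 0 to 1 with single libraries omitted, being 1 without A/J mouse 22 or without SJL mouse 49 or 59. The cause of these changes was not tested.

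Of the 46 called strain differences, 46 were called with RLE factors, 46 with DESeq2 and 46 with edgeR's earlier method, which was tried after seeing the data. Called ones numbered 39 with no filter, 32 of 43 tested with limma, and 29 of 39 in the 4 tissues with left-out libraries. Over single omissions, 1396 refits kept a call and 76 lost one.

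Between tissues, 88 of 100 tests were called. With the mouse as a replicate block 86 were called, and the block ended Scd2 in brown against visceral fat (adjusted p = 0.0526 against 0.0288) and Elovl3 in subcutaneous against visceral fat (0.163 against 0.0472). With single mice omitted 85 to 88 were called. On log2(TPM + 1) with limma the log2 differences of Elovl1 were -0.68 (liver against subcutaneous fat) and -0.85 (liver against visceral fat), of Elovl5 -0.19 and Scd1 -0.14 (brown against subcutaneous fat), of Elovl6 -0.33 (liver against subcutaneous fat) and of Fads2 0.46 (subcutaneous fat against muscle), each opposite to the edgeR sign. Elovl3 in subcutaneous against visceral fat was 0.36 without the left-out libraries. Depth limits Scd4, whose median was under 1 TPM in all 5 tissues.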
